A study of Mus musculus with 10 samples.

Results

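The genes of new fat synthesis were followed in mouse gastrocnemius, the large calf muscle, through exercise and sedentary ancestry. The set held 10 genes, Scd1, Fasn, Acaca, Acacb, Acly, Elovl6, Srebf1, Thrsp, Dgat2 and Gpam, of 19938 genes named by 1 symbol in the platform annotation. The members were chosen by name. Where a gene had several probe sets, the brightest on average stood for it, and all 10 passed the filter on low values that kept 11963 genes. Values are log2 probe set signals, differences are on the log2 scale, and no gene's level was set against another's.

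The series used 10 arrays, each loaded with RNA pooled from 5 male C57BL/6 mice. In the F0 generation, taken at 28 weeks of age, animals had voluntary exercise (EX, 1 pool) or a sedentary life (SED, 1 pool), and mated with partners of like exposure. F1 and F2 animals were all sedentary and taken at 8 weeks. For them EX and SED stand for what their ancestors did, and F2 came from matings of F1 littermates. Each ancestry in F1 and in F2 was represented by 2 pools. The labels do not say how many litters or different animals lie behind a pair of pools, so the p-values rest on a pool-to-pool spread that may be technical. The 12 skeletal muscle markers, among them Acta1, Ckm and the fast myosin Myh4, all passed the filter. The F0 SED array and F1 EX pool 1 stood apart from the rest, with a median Pearson r across genes of 0.974 and 0.979 with the other arrays, where the remaining arrays had 0.986 to 0.992. Scan dates were not given in the sources used here.

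In new fat synthesis, citrate that leaves the mitochondrion is cleaved to acetyl-CoA, acetyl-CoA is carboxylated to malonyl-CoA, and fatty acid synthase builds palmitate from both. Palmitate is then lengthened, given a double bond, and joined to glycerol as triglyceride. The pathway is most active in liver and in adipocytes. In skeletal muscle, malonyl-CoA is best known as the brake on entry of fatty acids into mitochondria, and muscle samples also carry fat cells that lie between fibres and bundles.

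Scd1, the desaturase that makes oleate and palmitoleate, varied more between pools than any other member. It read 9.42 in F0 EX and 9.45 in F0 SED. In F1 it read 8.69 and 8.31 in the EX pools, against 9.76 and 9.34 in the SED pools. In F2 it read 8.79 and 8.72 in the EX pools, against 8.39 and 9.85 in the SED pools. Both F1 EX pools thus lay below both F1 SED pools, while the F2 EX pools lay between the F2 SED pools, which held the second lowest and the highest value of the series. By group mean the order was F1 SED (9.55), F0 SED (9.45), F0 EX (9.42), F2 SED (9.12), F2 EX (8.76) and F1 EX (8.50). The pooled SD between pools of 1 descendant group was 0.55, which is larger than the gap between any neighbours in that order.

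**Figure D1:**
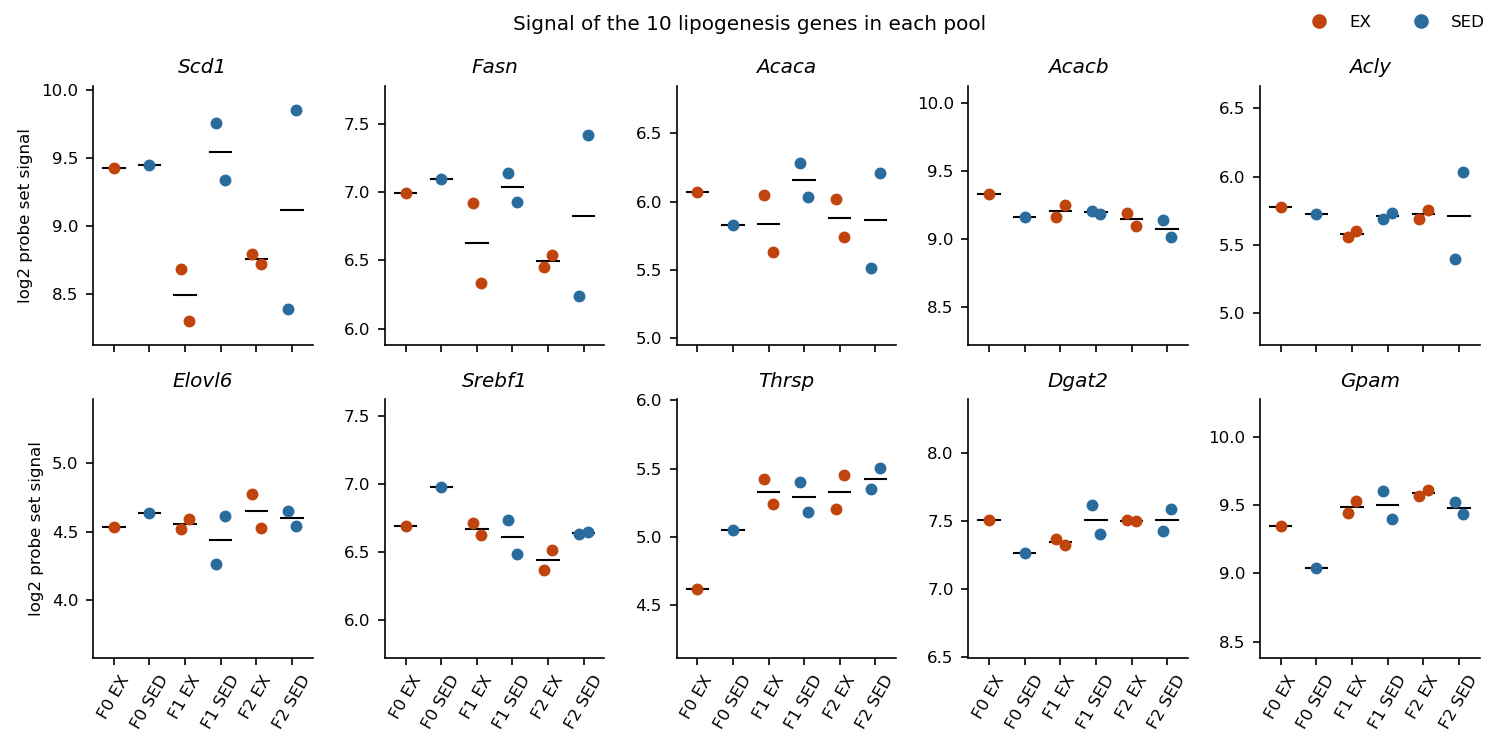
Log2 probe set signal of each gene (y axis; every panel spans the same range) in each of the 10 pools, by generation and ancestry (x axis); points are pools and bars are group means. Scd1 runs from 8.31 in an F1 EX pool to 9.85 in an F2 SED pool, and Acacb from 9.01 to 9.33.

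Fasn, fatty acid synthase itself, read 6.99 in F0 EX and 7.10 in F0 SED, 6.92 and 6.33 in F1 EX against 7.14 and 6.93 in F1 SED, and 6.45 and 6.54 in F2 EX against 6.24 and 7.42 in F2 SED. Acaca, the cytosolic acetyl-CoA carboxylase that makes malonyl-CoA for synthesis, read 6.07 in F0 EX and 5.83 in F0 SED, 6.05 and 5.63 in F1 EX against 6.28 and 6.04 in F1 SED, and 6.02 and 5.74 in F2 EX against 5.51 and 6.21 in F2 SED. Acly, the ATP citrate lyase that supplies acetyl-CoA, read 5.78 in F0 EX and 5.73 in F0 SED, 5.56 and 5.60 in F1 EX against 5.69 and 5.73 in F1 SED, and 5.69 and 5.76 in F2 EX against 5.39 and 6.03 in F2 SED. All 3 genes shared with Scd1 a low first and a high second pool of F2 SED, with the F2 EX pools in between. A second probe set of Acaca did not share this spread: it read 4.69 and 4.82 in F2 SED, and 4.58 and 4.95 in F2 EX.

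Acacb, the carboxylase at the mitochondrial surface whose malonyl-CoA restrains fatty acid import in muscle, was the steadiest member. Its 10 values ran from 9.01 in F2 SED pool 2 to 9.33 in F0 EX. Its pooled SD between pools of a group was 0.06, smaller than that of all but 6.9% of the genes kept. Elovl6, which lengthens palmitate, ran from 4.26 in F1 SED pool 1 to 4.78 in F2 EX pool 1. Neither gene had groups that separated in F1 or in F2.

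Srebf1 encodes the transcription factor SREBP-1, which drives the genes of this pathway in liver. It read 6.69 in F0 EX and 6.97 in F0 SED, 6.71 and 6.63 in F1 EX against 6.74 and 6.48 in F1 SED, and 6.37 and 6.51 in F2 EX against 6.63 and 6.65 in F2 SED. Its highest pool was thus F0 SED and its lowest F2 EX pool 1, and its F2 SED pools differed by 0.02, where those of Scd1 differed by 1.46. Thrsp, a small protein induced by thyroid hormone and feeding in liver and fat, read 4.61 in F0 EX and 5.05 in F0 SED, 5.42 and 5.24 in F1 EX against 5.41 and 5.18 in F1 SED, and 5.20 and 5.46 in F2 EX against 5.35 and 5.502 in F2 SED. Both F0 pools lay below all 8 descendant pools.

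The enzymes that join fatty acids to glycerol had narrower ranges than Srebf1 and Thrsp, at 0.35 for Dgat2 and 0.57 for Gpam, though wider than Acacb. Dgat2, which completes triglyceride, read 7.51 in F0 EX and 7.27 in F0 SED, 7.37 and 7.32 in F1 EX against 7.62 and 7.40 in F1 SED, and 7.504 and 7.502 in F2 EX against 7.43 and 7.59 in F2 SED. Both of its F1 EX pools lay below both F1 SED pools, and its F2 groups overlapped. Gpam, the mitochondrial acyltransferase of the first step, read 9.35 in F0 EX and 9.04 in F0 SED, 9.44 and 9.53 in F1 EX against 9.61 and 9.40 in F1 SED, and 9.57 and 9.61 in F2 EX against 9.53 and 9.43 in F2 SED. For Gpam, too, both F0 pools lay below every descendant pool.

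The spread between pools of 1 group differed widely among the members. Scd1, Fasn and Acaca had pooled SDs of 0.55, 0.47 and 0.32, larger than those of 99.5%, 99.2% and 95.5% of the genes kept, and Acly had 0.23 (83.2%). For the other 6 members the share lay between 6.9% (Acacb) and 56.2% (Elovl6). Most of the spread came from F2 SED, where pool 2 exceeded pool 1 by 1.46 in Scd1, 1.19 in Fasn, 0.70 in Acaca and 0.64 in Acly. These 4 of 10 members were at least 0.5 apart between the F2 SED pools, as were 2.88% of all genes kept. In F2 EX 0 members were that far apart (2.33% of genes), in F1 SED 0 (2.64%), and in F1 EX 1 member, Fasn, with pool 2 lower by 0.59 (15.3%).

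**Figure D2:**
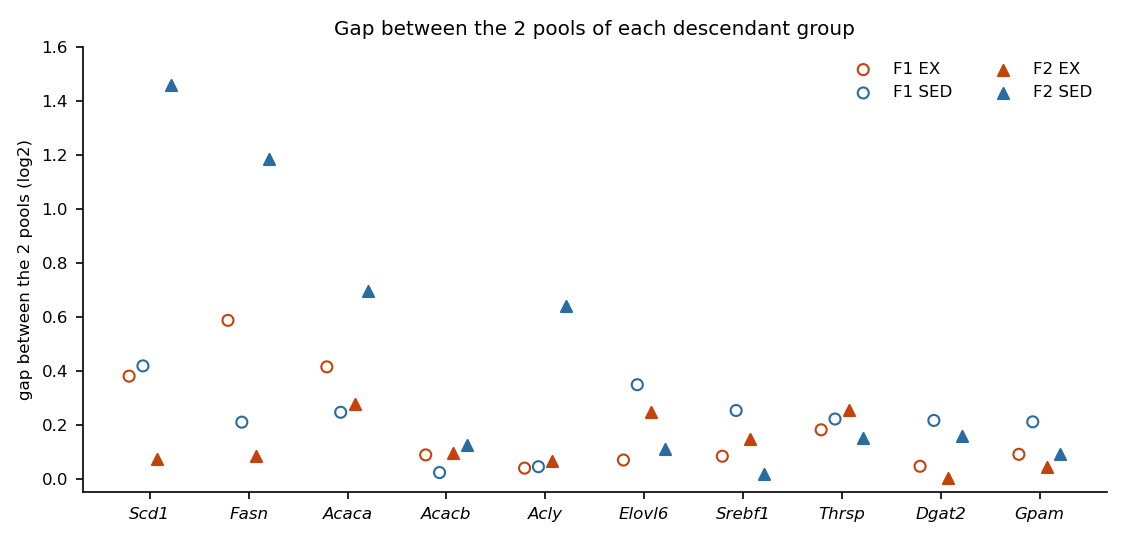
Size of the gap between the 2 pools of each descendant group (y axis, log2) for each gene (x axis); circles are F1, triangles F2, red EX and blue SED. The F2 SED gaps of Scd1, Fasn, Acaca and Acly, between 0.64 and 1.46, stand above those of the other 6 genes, which are at most 0.35 in any group.

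Markers of fat cells and of myeloid cells both differed between the F2 SED pools, where the gap of Scd1 was widest, but not in each group where Scd1 differed. Of 17 adipocyte markers written down, 15 were matched, and 14 passed the filter; leptin (Lep) did not. Adipoq, the fat cell hormone adiponectin, read 4.71 and 5.09 in F2 EX, against 4.51 and 5.71 in F2 SED. Retn, the fat cell hormone resistin, read 5.10 and 5.07 in F2 EX against 4.89 and 5.88 in F2 SED, and 4.97 and 4.87 in F1 EX against 5.72 and 5.43 in F1 SED. Between the F2 SED pools 10 of 14 adipocyte markers were higher in pool 2, and 5 were at least 0.5 apart. All 8 myeloid markers were higher in F2 SED pool 2 as well, 2 of them at least 0.5 apart. Of all 11963 genes kept, 6301 were higher in F2 SED pool 2, and 2.88% were at least 0.5 apart. Cd74, the invariant chain of antigen presentation, read 5.70 and 6.00 in F2 EX, against 5.45 and 6.96 in F2 SED. In F1 SED the 8 myeloid markers were all higher in pool 2, where Scd1 was lower, and 4379 of the 11963 genes kept were higher there. The mean deviation of the myeloid markers was -0.011 and -0.14 in F1 EX against 0.026 and 0.34 in F1 SED, and -0.060 and 0.11 in F2 EX against -0.13 and 0.28 in F2 SED. The mean deviation of the 14 adipocyte markers from their means over the 10 arrays was -0.26 and -0.24 in F1 EX, against 0.25 and 0.07 in F1 SED. It was -0.03 and 0.02 in F2 EX, against -0.09 and 0.29 in F2 SED, and 0.03 in F0 EX against -0.03 in F0 SED.

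The summed linear signal of the 14 adipocyte markers ran from 7146 to 8017 in F1 EX against 8146 to 8859 in F1 SED, and from 8643 to 8904 in F2 EX against 8414 to 8469 in F2 SED. In F0 the sum was 7206 for EX and 5783 for SED. The list includes Car3, Gpd1 and Plin4, which muscle fibres express as well. Car3 read 12.2 in F0 EX and 11.7 in F0 SED, and Gpd1 10.7 and 10.8, far above every other marker of the list. The sums are thus mostly signal of Car3 and Gpd1 and are no measure of fat cells. Of the 5 brown adipocyte markers, Ucp1, Elovl3 and Dio2 were below the filter. The part of fat cells and of myeloid cells in the spread of the lipogenesis genes was not tested, and in pooled muscle RNA fewer fat cells and less RNA per fat cell cannot be told apart.

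Over the 8 descendant pools, the 5 genes outside the set most like Scd1 by Pearson's r were Retn (0.990), Pck1 (0.958), Arsk (0.951), Acp5 (0.949) and Slc1a5 (0.940). Retn put the 8 pools in the same order as Scd1, with a Spearman rho of 1. Without the 2 pools farthest from the median of Scd1, r was 0.980 for Retn and 0.867 for Pck1, the cytosolic phosphoenolpyruvate carboxykinase that fat cells use to make glycerol phosphate. Not all adipocyte markers were as like Scd1: over the descendant pools r was 0.913 for Adipoq, 0.851 for Cidec and 0.733 for Plin1, but 0.343 for Pparg, 0.280 for Acvr1c, 0.164 for Plin4, 0.140 for Car3 and 0.057 for Gpd1. Without the 2 farthest pools Adipoq had 0.692, Plin1 0.135, Cebpa -0.090 and Plin4 -0.20. Over all 10 pools the 5 were Cdo1 (0.917), Adipoq (0.912), Itprid2 (0.908), Ubtd1 (0.879) and Retn (0.878). Scd1 values left a gap between 8.79 and 9.34. The coefficients describe genes picked for being most alike, and no r was computed on either side of that gap.

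Among the members, Fasn had an r of 0.912 with Scd1 over the descendant pools, Acaca 0.871, Dgat2 0.764 and Acly 0.744. Dgat2 had 0.262 without the 2 farthest pools, where Fasn had 0.760, Acaca 0.752 and Acly 0.649. Thrsp had 0.334, Srebf1 0.196, Gpam -0.205, Acacb -0.400 and Elovl6 -0.535. Between the pools of 1 group, Dgat2 differed in the direction of Scd1 in all 4 descendant groups. Acly did so in F2 SED alone: pool 2 exceeded pool 1 by 0.040 in F1 EX, 0.045 in F1 SED and 0.066 in F2 EX, where Scd1 differed by -0.38, -0.42 and -0.073.

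**Figure D3:**
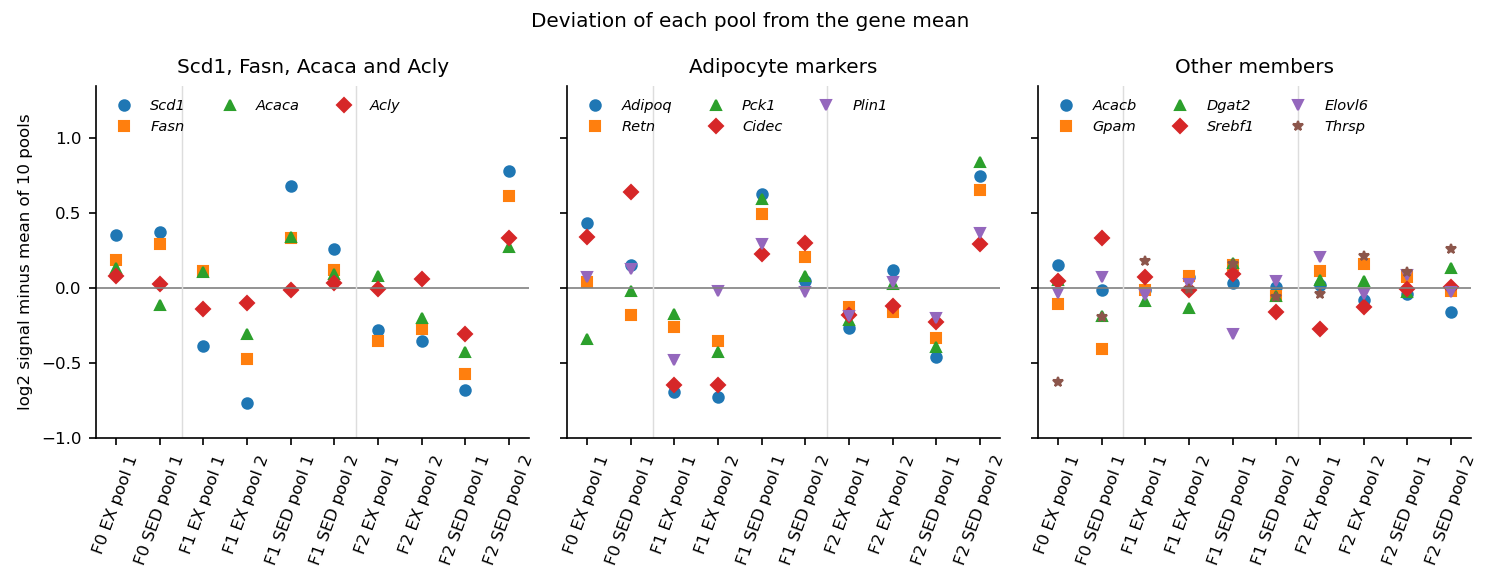
Deviation of each pool from the gene's mean over the 10 pools (y axis, log2), by pool (x axis; grey lines part F0, F1 and F2), for Scd1 with the 3 members of highest r over all 10 pools, for 5 adipocyte markers, and for the 6 other members. The 5 markers are those of the 14 kept with the highest r with Scd1 over the descendant pools, so their likeness to Scd1 was selected for. Scd1 and Adipoq are low in both F1 EX pools and in F2 SED pool 1, and high in F1 SED pool 1 and F2 SED pool 2. Among the 6 other members the largest deviations are those of Thrsp in F0 EX and Gpam in F0 SED, both below 0, and then Srebf1 in F0 SED, above 0.

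Promoter windows are shown for a pair of members with a wide gap between the F2 SED pools and for one with a narrow gap. RefSeq start sites of GRCm38.p6 gave 11 windows for 8 of the 10 members, and the 250 bases before each start were searched on both strands. Shown are Fasn and Acly, 1.19 and 0.64 apart between the F2 SED pools, and Thrsp, 0.15 apart. Capitals mark CCAAT (or its reverse complement ATTGG) and GGGCGG (or CCGCCC). Each sequence runs 5′ to 3′ on the strand of its gene.
Fasn (chr11:120824548-120824797, minus strand): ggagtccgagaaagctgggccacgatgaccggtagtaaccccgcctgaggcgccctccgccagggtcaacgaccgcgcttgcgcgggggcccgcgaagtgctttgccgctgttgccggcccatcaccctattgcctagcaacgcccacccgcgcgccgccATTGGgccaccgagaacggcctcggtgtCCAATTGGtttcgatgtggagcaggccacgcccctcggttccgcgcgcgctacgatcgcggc
Acly (chr11:100528001-100528250, minus strand): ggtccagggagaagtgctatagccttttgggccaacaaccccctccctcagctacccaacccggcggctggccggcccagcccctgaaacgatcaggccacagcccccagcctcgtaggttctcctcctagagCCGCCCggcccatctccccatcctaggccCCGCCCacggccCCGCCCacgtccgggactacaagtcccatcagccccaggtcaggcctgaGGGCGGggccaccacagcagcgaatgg
Thrsp (chr7:97417551-97417800, minus strand): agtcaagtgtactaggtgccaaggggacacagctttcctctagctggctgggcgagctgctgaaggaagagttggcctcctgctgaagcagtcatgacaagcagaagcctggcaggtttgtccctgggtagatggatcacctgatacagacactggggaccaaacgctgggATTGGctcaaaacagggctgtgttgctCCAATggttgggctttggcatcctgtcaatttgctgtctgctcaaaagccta

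The Fasn window held 3 matches to CCAAT, of which a pair on opposite strands overlap, and 0 to GGGCGG. The Acly window held 4 matches to GGGCGG and 0 to CCAAT. The Thrsp window held 2 matches to CCAAT. Over all members 6 of 11 windows held CCAAT and 4 held GGGCGG, where 33.8% and 32.7% of 32851 windows of the same length did. The sterol response element searched as TCACNCCAC, through which SREBP proteins act, the E-box CACGTG and the DR4 direct repeat bound by liver X receptors matched 0 of the 11 windows, where 1.05%, 6.02% and 0.0152% of all windows held them. That says only that these letters are not in these windows.

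The first comparison was of the F0 animals, which were themselves exercised or sedentary. With 1 pool each it has no replicate check and no test. None of the 10 members was 0.5 or more apart between F0 EX and F0 SED, where 20.7% of the genes kept were (15.3% higher and 5.38% lower in EX). On the values as deposited Thrsp differed most, with 4.61 in F0 EX and 5.05 in F0 SED (-0.44). Gpam followed with 9.35 and 9.04 (0.30) and Srebf1 with 6.69 and 6.97 (-0.28). That order depends on the scaling, since Gpam differed most with median centring (0.45) and Srebf1 with quantile normalization (-0.50). Scd1 differed by -0.024 and Fasn by -0.11. The median was 0.015 over the members and 0.075 over all genes kept. With each array centred on its median, Scd1, Fasn and Elovl6 stood at 0.12, 0.040 and 0.042, and with quantile normalization Acly and Acacb stood at -0.065 and -0.066, so that the sign of these 5 is not settled.

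The wider set of fatty acid and triglyceride genes was described from a list of 46, of which 35 were kept. In F0, 8 of the 35 were at least 0.5 higher in EX and 0 lower, with a median of 0.25, where 15.3% of all genes were that much higher. The F0 SED array, 1 of those that stood apart, had a mean deviation of -0.16 for this list and -0.31 for the skeletal muscle markers, against 0.08 and -0.01 in F0 EX. The part of that array in these values was not tested.

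In F1 the question was whether exercise of both parents left a mark on sons that never exercised. Scd1 averaged 8.50 ± 0.27 in F1 EX and 9.55 ± 0.30 in F1 SED (SD, n = 2 each), a difference of -1.05 (SE 0.376, 95% interval -1.89 to -0.21), or 2.07-fold lower in EX. The unadjusted p in limma was 0.0200, and the adjusted p over all 11963 genes was 0.804, so that the difference did not pass. Fasn had an estimate of -0.41 (-1.14 to 0.33), Acaca -0.32 (-0.84 to 0.20), Dgat2 -0.17 (-0.46 to 0.12) and Acly -0.13 (-0.55 to 0.29). The other 5 members had estimates between -0.02 and 0.12. None of the 10 members passed, and 0% of all genes did. Of the members 1, Scd1, had an unadjusted p under 0.05, where 4.88% of genes did.

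In 4 of the 10 members, Scd1, Fasn, Acly and Dgat2, both F1 EX pools lay below both F1 SED pools, as in 16.6% of genes, and in 0 members did they lie above (13.0% of genes). For Fasn the margin was 6.92 in F1 EX pool 1 against 6.93 in F1 SED pool 2. Leaving out F1 EX pool 1, which stood apart, gave -0.70 for Fasn, and leaving out F1 EX pool 2 gave -0.11. For Scd1 the estimates without 1 pool ran from -1.26 to -0.84. Adipocyte markers had estimates below 0 in 13 of 14 genes with a median of -0.36, 6 of them at an unadjusted p under 0.05 and 0 past the threshold, where 51.1% of all genes had estimates below 0. The part of fat cells in the estimates of Scd1 and Fasn was not tested. Of the members, 6 of 10 had estimates below 0.

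In F2, the grandsons, the estimates of Scd1, Fasn, Acaca, Acly, Dgat2 and Elovl6 were nearer 0 than in F1. Those of Srebf1, Gpam, Thrsp and Acacb were farther from it. Scd1 averaged 8.76 ± 0.05 in F2 EX and 9.12 ± 1.03 in F2 SED (SD, n = 2 each), a difference of -0.36 (-1.21 to 0.48, limma adjusted p = 1.00). Without F2 SED pool 1 it was -1.09, and without F2 SED pool 2 it was 0.37, so that its direction was set by which F2 SED pool was kept. Fasn had -0.33, which ran from -0.93 to 0.26 between the same alternatives. Srebf1 had -0.20 (-0.50 to 0.10), with both F2 EX pools below both F2 SED pools (14.6% of genes), and Gpam had 0.11 (-0.18 to 0.39), with both F2 EX pools above (25.8%). No member passed (0% of genes) and no member had an unadjusted p under 0.05 (4.45%). Estimates were below 0 in 5 of 10 members and in 11 of 14 adipocyte markers (39.3% of genes).

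Whether the EX minus SED difference was unlike in F2 and F1 was tested as an interaction. For Scd1 it was 0.69 (-0.51 to 1.88, limma adjusted p = 0.919), and without F2 SED pool 1 it was -0.044. No member passed (0% of genes), and 0 had an unadjusted p under 0.05 (4.34%). An effect in F1 that differs from that in F2 was thus not shown for any member, and the intervals are wide.

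With F1 and F2 in 1 fit and generation in the model, Scd1 averaged 8.63 ± 0.22 in EX and 9.33 ± 0.67 in SED (SD, n = 4 each), a difference of -0.71 (SE 0.274, 95% interval -1.31 to -0.10, unadjusted p = 0.0263, limma adjusted p = 0.888). Each EX pool lay below at least 3 of the 4 SED pools, and F2 SED pool 1, at 8.39, lay below 3 of the 4 EX pools. Fasn had -0.37 (-0.86 to 0.12) and Acaca -0.15 (-0.52 to 0.21). The other 7 members lay between -0.086 (Dgat2) and 0.087 (Elovl6). Their intervals were narrower: that of Acacb was -0.14 to 0.22, that of Gpam -0.15 to 0.24 and that of Thrsp -0.25 to 0.19. Estimates were below 0 in 7 of 10 members (46.7% of genes). No member passed (0% of genes), and 1 of 10 had an unadjusted p under 0.05 (4.99% of genes). None had EX pools that did not overlap the SED pools (3.03%).

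**Figure D4:**
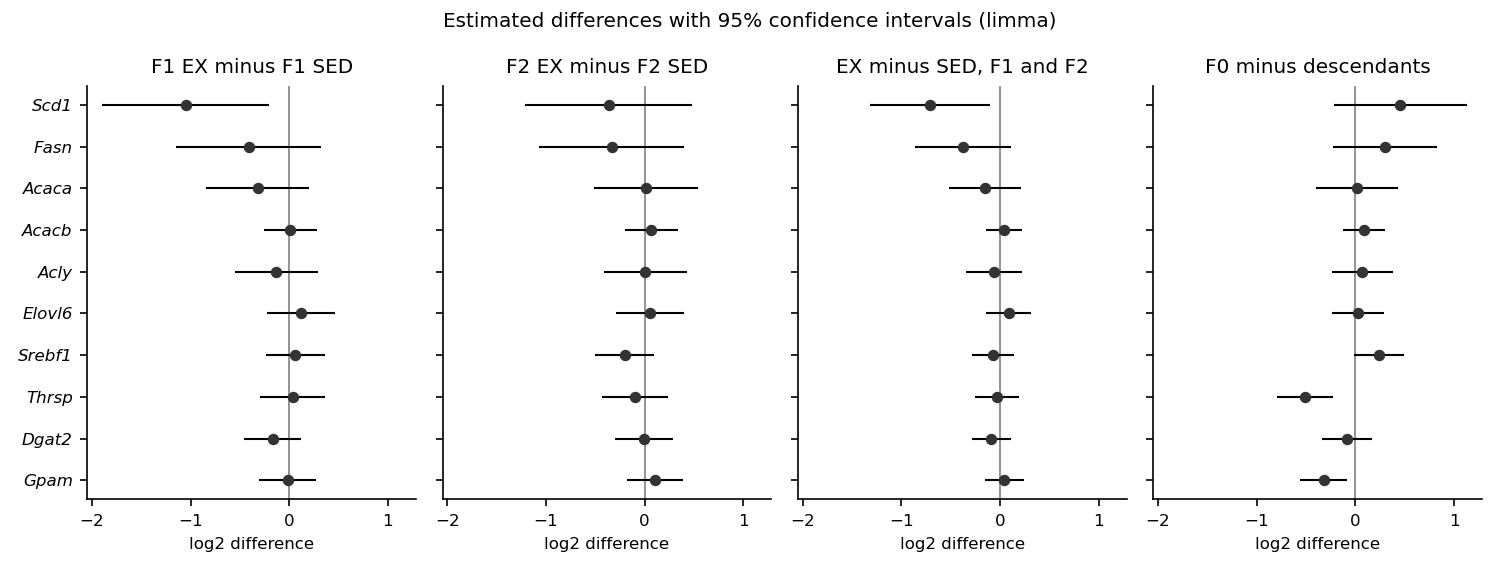
Estimated difference (point) and 95% confidence interval (bar) of each gene in log2 units (x axis) in 4 comparisons, from limma. Scd1 has the widest intervals and the lowest estimates for ancestry, from -1.05 in F1 to -0.36 in F2, and Thrsp and Gpam are low in F0 against descendants.

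The other genes of the pathway passed in neither direction in F1, in F2 or over both generations, with 0 of 35 each. In F1 the smallest p in the wider list were those of the mitochondrial citrate carrier Slc25a1 (-0.56), the dehydratase Hacd2 (-0.50) and Insig1 (-0.67), which holds back SREBP processing. Slc25a1 read 4.74 and 4.93 in F1 EX, against 5.37 and 5.43 in F1 SED. Insig1 read 5.73 and 6.59 in F1 EX against 6.95 and 6.70 in F1 SED, the lower F1 EX value being on the array that stood apart. Over both generations Mid1ip1, a partner of Thrsp that promotes acetyl-CoA carboxylase assembly, had the smallest p in the list, with 0.30 (0.07 to 0.52). It read 7.003, 6.67, 6.81 and 6.69 in the EX pools, against 6.61, 6.35, 6.50 and 6.53 in the SED pools. Its EX and SED pools did not overlap, as in 3.03% of all genes kept. The limma adjusted p of Mid1ip1 was 0.888. The 19 cholesterol synthesis genes kept, the main targets of SREBP-2, had a median of 0.016 over both generations, and the 11 genes of malonyl-CoA and AMPK control had 0.035, against 0.010 for all genes.

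Between F2 and F1, both 8 weeks old, the members had estimates between -0.17 (Fasn) and 0.13 (Elovl6). Scd1 had -0.082 (-0.69 to 0.52). No member passed (0% of genes) and 0 had an unadjusted p under 0.05 (4.25%), and in 0 members did the F2 pools separate from the F1 pools (2.88%).

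The last comparison set F0 against the descendants, in which age, exposure and generation cannot be told apart. Thrsp averaged 4.83 ± 0.31 in F0 (SD, n = 2) and 5.34 ± 0.12 in descendants (SD, n = 8), a difference of -0.51 (SE 0.130, 95% interval -0.80 to -0.23), or 1.43-fold lower. Its limma adjusted p was 0.0671, which did not pass, and it was 0.0471 without F1 EX pool 1, the only alternative in which it passed. The limma adjusted p of Thrsp was 0.092 with quantile normalization, 0.137 without F2 SED pool 2 and 0.548 with array weights. Its estimate ran from -0.72 without F0 SED to -0.31 without F0 EX. Gpam averaged 9.19 ± 0.21 in F0 and 9.51 ± 0.08 in descendants, a difference of -0.32 (-0.56 to -0.08, limma adjusted p = 0.161). It was -0.19 without F0 SED, the array that stood apart, and -0.45 without F0 EX. Srebf1 had 0.24 (-0.01 to 0.50), Scd1 0.46 (-0.22 to 1.13) and Fasn 0.30 (-0.23 to 0.83). None of the 10 members passed, where 2.33% of genes did, and 2 had an unadjusted p under 0.05 (17.6% of genes). In 2 of 10, Thrsp and Gpam, both F0 pools lay below all descendants (6.65% of genes), and in 0 did they lie above (5.79%).

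Of 35 genes in the wider list 2 fell in F0 (1.54% of all genes) and 0 rose (0.794%). Hacd1, the dehydratase of fatty acid elongation that is abundant in muscle, read 10.04 in the F0 EX pool and 9.56 in the F0 SED pool, against 10.5 to 11.1 in descendants. Its difference was -0.99 (SE 0.134, limma adjusted p = 2.85e-03). Scd2, another stearoyl-CoA desaturase, read 6.62 in the F0 EX pool and 6.01 in the F0 SED pool, against 6.75 to 7.44 in descendants (-0.86, SE 0.184, adjusted p = 0.0321). Both Scd2 pools in F0 thus lay below all descendants (6.65% of genes), while Scd1 at 9.42 and 9.45 lay within their range. The Scd2 call ended without F0 SED (-0.60, adjusted p = 0.340), with array weights (-0.82, 0.454), and without F1 SED pool 1 (0.0663), F1 SED pool 2 (0.0557) or F2 EX pool 1 (0.0612). It also ended without both arrays that stood apart, an alternative chosen after seeing the data (-0.53, 0.313). The Hacd1 call ended without F0 SED (-0.81, 0.0721).

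Among markers of other cells, 3 of 6 fibroblast genes and 2 of 6 endothelial genes fell in F0, and 2 of 3 keratinocyte genes rose. The 6 fibroblast markers had mean deviations of -0.71 (F0 EX) and -0.94 (F0 SED), against 0.03 to 0.40 in descendants. The 6 endothelial markers had -0.16 (F0 EX) and -0.53 (F0 SED), against 0.016 to 0.20 in descendants, and all 6 had estimates below 0, with Pecam1 at -0.71 (limma adjusted p = 0.0134) and Cdh5 at -0.62 (0.0268). The 3 keratinocyte markers kept had 0.70 (F0 EX) and 1.51 (F0 SED), against -0.41 to 0.14. Of the 8 myeloid markers 7 had estimates below 0 and 0 passed. Adipocyte markers stood at 0.03 and -0.03, within the descendants' range of -0.26 to 0.29, with 0 of 14 past the threshold. The part of these cells in the values of Thrsp, Gpam, Scd2 and Hacd1 was not tested.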

How the data were processed

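The authors deposited log2 signals, 1 value per probe set and array, in a table of 35557 probe sets and 10 arrays that runs from 0.966 to 14.2; the log2 scale was inferred from that range. Affymetrix Expression Console is named in the submitters' processing notes, while its version, background correction and normalization are not stated there. Per the labels' protocols, RNA at 98 ng/µl from 5 animals was pooled per array.

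In the platform annotation, which may be outdated, 21789 probe sets had 1 symbol, 1621 had several and 12147 had no symbol. Of these, 21698 matched a RefSeq gene table. A gene was kept if its mean reached the 40th percentile (3.235), leaving 11963. Detection calls were not used; precision is limited by how few arrays there are. The test was limma 3.58.1 under R 4.3.3 (lmFit, eBayes) on the values as deposited, with Benjamini-Hochberg adjustment over all kept genes and a threshold of 0.05. A model with 4 descendant groups on 8 arrays gave ancestry within F1, ancestry within F2 and the interaction. Additive models of generation and ancestry gave the remaining comparisons, on 8 arrays for the descendants and on 10 for F0. The fits were tested on simulated data. Alternatives covered normalization, filter, variance model, array weights, probe set rule, replicate block and each pool left out.

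Members, lists, motifs and tests were chosen with earlier results of these data known. All members are described in the comparisons, with up to 4 genes of smallest p from other lists and the 5 genes most like Scd1.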

Additional observations from a re-analysis of the deposited data

Results flagged for a closer look

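In 2 members the single F0 pools differed in the direction opposite to F1 pools that did not overlap, and the difference between generations was not tested. Over all genes the F1 EX pools lay above both F1 SED pools in 13.0% and below them in 16.6%. The share of those genes with an opposite F0 difference is not given here, so the count is not a result about the members. Dgat2 was higher in F0 EX than in F0 SED by 0.24, while both F1 EX pools (7.37 and 7.32) lay below both F1 SED pools (7.62 and 7.40). Acly was higher in F0 EX than in F0 SED by 0.053, while the F1 EX pools (5.56 and 5.60) lay below the F1 SED pools (5.69 and 5.73). With quantile normalization the F0 difference of Acly was -0.065. Of 50 checks for a single far-off pool among EX, SED, F2, F1 or all descendants, 0 passed Dixon's 95% limit. Each grouping holds few pools and mixes groups, so the checks have little power. They do not show that no pool was far off.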

How the results depend on the processing

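The count of members past the threshold stayed at 0 under the alternatives run for each comparison, except that Thrsp passed in F0 against descendants without F1 EX pool 1 (count 1). Of 974 member estimates under alternatives, 922 kept their direction. Many of these could not turn, since the filter and the variance model leave an estimate as it was. For ancestry within F1 or within F2, so does leaving out a pool of the other generation. The share that kept direction is thus no measure of robustness. Apart from left-out pools, the sign turned with quantile normalization for Gpam in F1 (0.026), Acaca and Acly in F2 (-0.028 and -0.031) and Acacb in the difference of effects (-0.027). With median centring it turned for Acacb in F1 (-0.020), Dgat2 in F2 (0.054) and Elovl6 in the difference of effects (0.028). Without both arrays that stand apart, chosen after seeing the data, F0 against descendants gave -0.079 for Elovl6 and 0.076 for Dgat2. The cause of these turns was not tested. Leaving out 1 pool moved F1 estimates across 0 for Acacb (-0.033 to 0.056), Elovl6 (-0.055 to 0.29), Srebf1 (-0.066 to 0.19), Thrsp (-0.074 to 0.15) and Gpam (-0.12 to 0.089). In F2 it did so for Scd1 (-1.09 to 0.37), Fasn (-0.93 to 0.26), Acaca (-0.33 to 0.36), Acly (-0.31 to 0.33), Elovl6 (-0.068 to 0.18), Thrsp (-0.22 to 0.030) and Dgat2 (-0.086 to 0.074). In the difference of effects the ranges were -0.044 to 1.42 for Scd1, -0.52 to 0.67 for Fasn, -0.012 to 0.68 for Acaca, -0.0044 to 0.12 for Acacb, -0.18 to 0.46 for Acly and -0.24 to 0.11 for Elovl6. Over both generations they were -0.20 to 0.053 for Acly and -0.088 to 0.034 for Thrsp. Between F2 and F1 they were -0.31 to 0.28 for Scd1, -0.40 to 0.076 for Fasn, -0.24 to 0.045 for Acaca and -0.040 to 0.22 for Acly. For F0 against descendants they were -0.18 to 0.21 for Acaca, -0.071 to 0.12 for Elovl6 and -0.24 to 0.083 for Dgat2.

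Over all genes, leaving out 1 pool gave 0 to 1046 genes past the threshold in F1 and 0 to 143 in the difference of effects, both highest without F1 EX pool 2, and 86 to 1231 in F0 against descendants, where 279 passed with all arrays. That count was 38 with array weights and 170 without both arrays that stand apart. Between F2 and F1, where 0 passed, 2 did with trend and robust settings, 1 with array weights and 1 with the replicate block. The replicate block changed no member's call. Deviations of EX and SED pools with the same number correlated at 0.016 in F1 and 0.064 in F2, and of F2 and F1 pools at -0.021 in EX and -0.072 in SED, so the numbers were not taken to pair the pools.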

Other observations

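Lipid droplet and lipolysis genes, 14 kept of 15, had estimates below 0 in 10 of 14 in F1, with a median of -0.14, and above 0 in 11 of 14 in F2, with a median of 0.064, and 0 passed in either. Of all genes, 51.1% had estimates below 0 in F1, with a median of -0.0044. In F2, 7257 of 11963 had estimates above 0, with a median of 0.037. In F1 the coat protein Plin3 had -0.36 (-0.66 to -0.06) and the fatty acid transporter Cd36 -0.47 (-0.95 to 0.01). Plin3 read 6.69 and 6.95 in F1 EX against 7.27 and 7.09 in F1 SED. Cd36 read 8.73 and 9.467 in F1 EX against 9.67 and 9.474 in F1 SED. For both genes the lower F1 EX value was on F1 EX pool 1, an array that stood apart. The desaturase Fads2 had 0.42 (0.10 to 0.74) in F2 at an unadjusted p of 0.0160 and a limma adjusted p of 1.00. Both of its F2 EX pools lay above both F2 SED pools, as in 25.8% of genes. Among cholesterol synthesis genes in F0 against descendants, Hsd17b7 had 0.58 and Tm7sf2 -0.44, with limma adjusted p of 0.0984 and 0.112.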
